A study of Mus musculus with 2 samples.

Results

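Heat shock proteins and their cochaperones make up the cell's protein-folding machinery, and 86 genes of it were taken from the 21829 gene symbols of the table. They were taken by symbol alone: Hspa, Hspb, Hsp90, Hspd1, Hspe1, Hsph1, the A, B and C classes of Dnaj, Bag, and the numbered Cct genes. The table compared CD80high with CD80low marginal zone B cells from the spleens of wild type, untreated male C57BL/6 mice, with 1 mRNA library for each population. CD80 is a costimulatory protein of the cell surface, and its level divided the marginal zone B cells, which border the splenic white pulp and answer blood-borne antigen early. The comparison addresses how the transcriptomes of these populations differ. The sources used here give neither the age and number of the mice, nor any pooling of animals, nor further gates of the sort. With 1 library per group, no difference below has a replicate check, no test was possible, and every value has n = 1.

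Hsp70 proteins bind unfolded stretches of other proteins in a cycle driven by ATP, in which J proteins (the Dnaj genes) deliver the client and start ATP hydrolysis, and exchange factors (the Hsp110 and Bag families) release the nucleotide so that the client is let go. Hsp90 matures kinases and receptors, small heat shock proteins hold aggregating proteins, and the ring-shaped chaperonins (Hspd1 with its lid Hspe1 in mitochondria, CCT in the cytosol) enclose proteins while they fold. Heat shock factor Hsf1 raises many of these genes when proteins unfold, and a separate response raises those of the endoplasmic reticulum, which antibody-secreting B cells use heavily.

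Levels are FPKM, a count of fragments corrected for both transcript length and library size, so they may be compared between genes. A gene was counted as measured when the mean of its FPKM in both libraries was at least 1, which held for 67 of the 86 genes and for 9955 genes in all. Each gene's ratio is log2((CD80high FPKM + 1)/(CD80low FPKM + 1)), which understates differences of low genes, whereas each fold is the plain quotient of the FPKM values, CD80high over CD80low. The interval after a fold is an approximate exact conditional (Clopper-Pearson) 95% interval on fragment numbers estimated from the FPKM, and it covers counting error only.

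Chaperone transcripts were abundant in both populations, and the levels of most were close. The 86 genes summed to 8266 FPKM in CD80high against 8159 FPKM in CD80low, which was 1.5% of the table's total in CD80high and 1.3% in CD80low. The inducible Hsp70 pair Hspa1a and Hspa1b, the constitutive Hsp70 Hspa8 and the constitutive Hsp90 Hsp90ab1 together held 49.9% of that sum in CD80high and 48.1% in CD80low. In the bulk RNA of each population, a difference in the share of cells with a transcript and a difference in RNA per cell cannot be told apart.

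**Figure D1:**
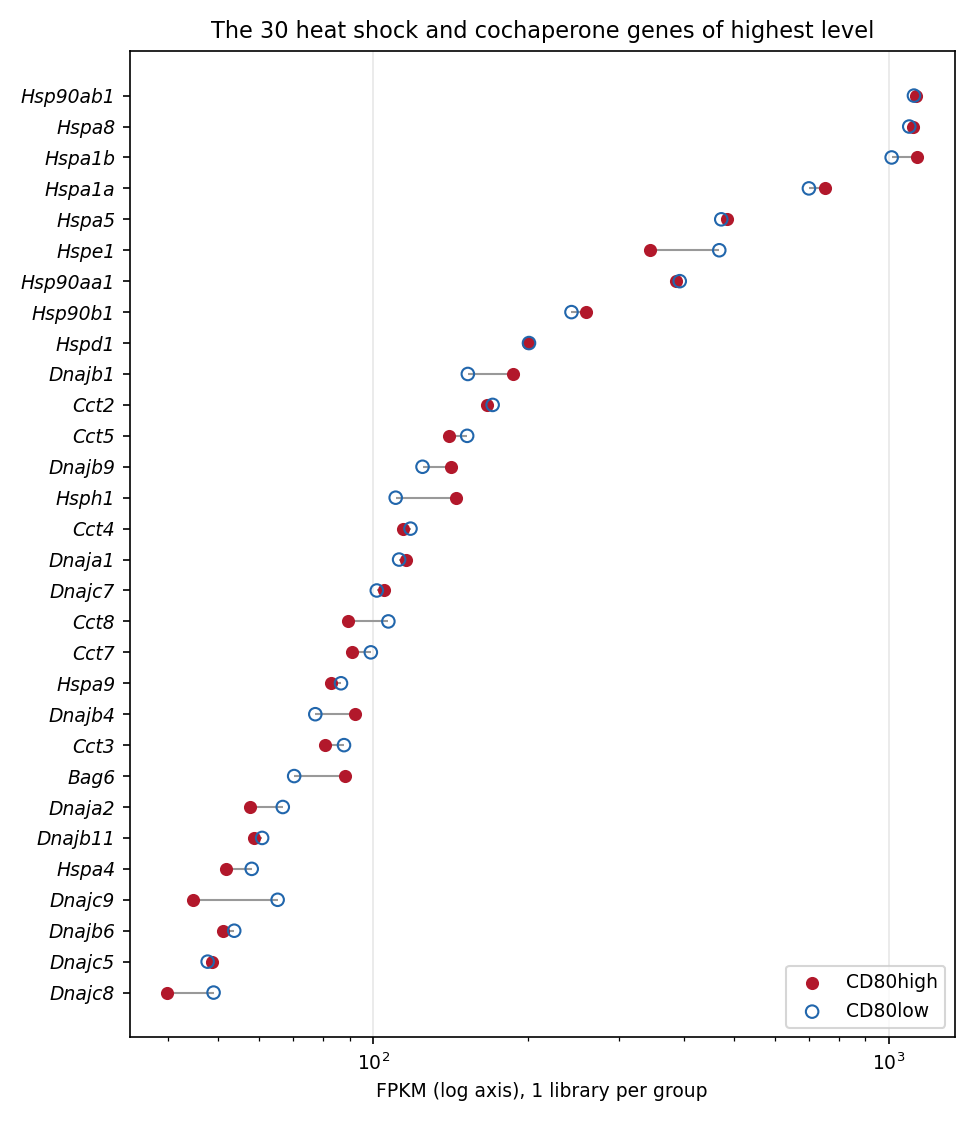
FPKM (log axis) of the 30 heat shock and cochaperone genes of highest mean level, with CD80high as filled red and CD80low as open blue points, 1 library each. Hsp90ab1, Hspa8 and Hspa1b lie above 1000 FPKM in both libraries, and the widest gaps are those of Dnajc9, at 44.7 FPKM in CD80high against 65.3 FPKM in CD80low, and Hspe1, at 343 FPKM in CD80high against 469 FPKM in CD80low.

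No measured member reached a 2-fold difference by its ratio, where 0.352% of all 9955 measured genes were at least 2-fold higher in CD80high and 0.1% at least 2-fold lower. Bag3 and Dnaja4 were at least 1.5-fold higher, which is 2 of 67 (2.99%) against 1.51% of all measured genes, and no member was 1.5-fold lower against 0.894% of all. At 1.2-fold, 8 members were higher (11.9% against 8.31% of all measured genes) and 5 were lower (7.46% against 11.4%). In either direction, the shares of members were thus close to those of all measured genes at 1.5-fold (2.99% against 2.4%) and at 1.2-fold (19.4% against 19.7%), and at 2-fold they were 0 of 67 against 0.452%. The 8 were Bag3, Dnaja4, Hsph1, Hspa12a, Bag6, Dnajb2, Dnajc16 and Dnajb1, and the 5 were Dnajc9, Hspe1, Dnajc19, Dnajc8 and Bag1. The median ratio of the members was -0.03, beside -0.02 for all measured genes, with 30 members above 0 and 37 below (44.8% above, against 46.4% of all). The FPKM totals were 551206 in CD80high and 613742 in CD80low, and bringing both to their mean (rescaling) moves every log2 ratio up by 0.16 before the pseudocount. Then 52 members were above 0 and 15 below (77.6% above, against 73.8% of all), and the median was 0.12 for the members and 0.12 for all measured genes. The direction of a small difference, and the sign of the members' median, therefore depended on the scaling.

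**Figure D2:**
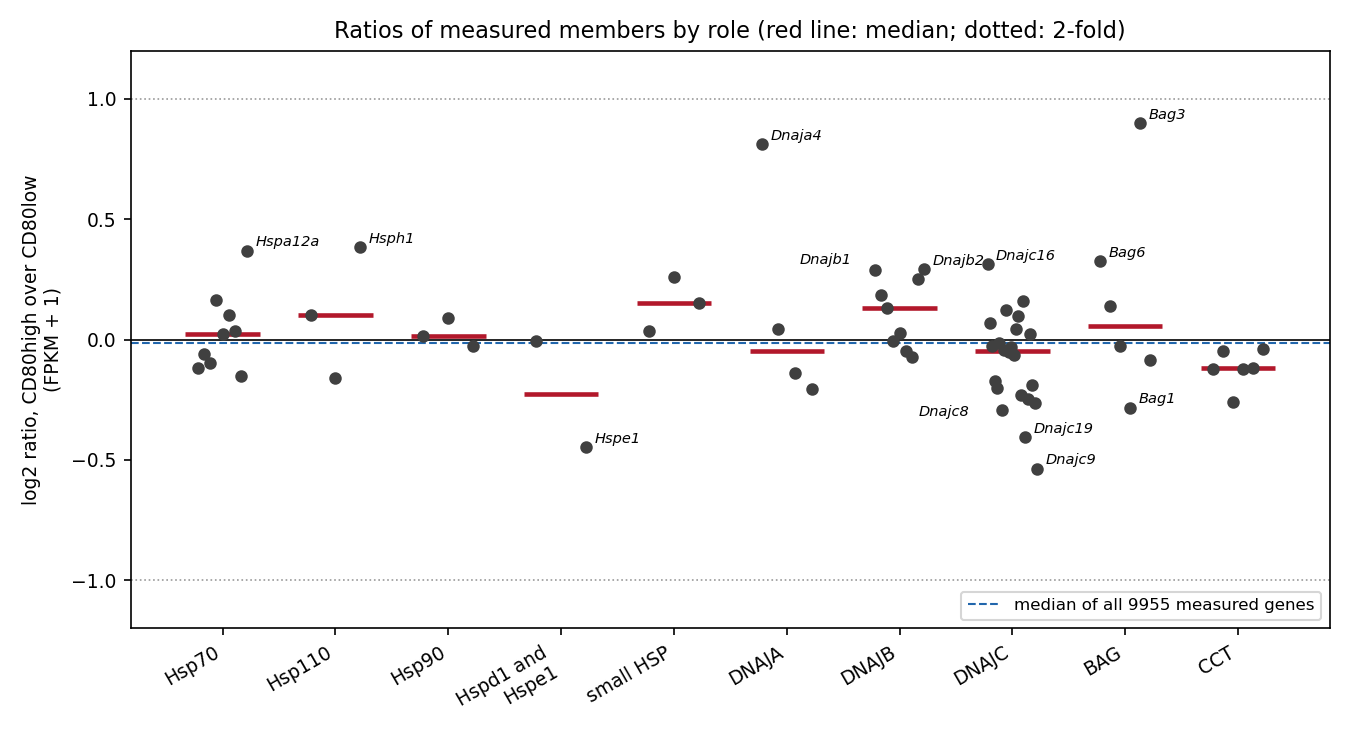
Ratio of each of the 67 measured members (log2 of CD80high over CD80low, FPKM + 1, as deposited), grouped by role, with the group median as a red bar, the median of all 9955 measured genes as a dashed line and 2-fold as dotted lines. Bag3 (0.90) and Dnaja4 (0.81) stand above the other members, and Dnajc9 (-0.54) and Hspe1 (-0.45) lie lowest. After rescaling, the medians of DNAJA, DNAJC and CCT change sign.

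Bag3, an exchange factor that couples Hsp70 to selective autophagy together with the small heat shock protein Hspb8, had the largest ratio among the members. It had 7.63 FPKM in CD80high against 3.63 FPKM in CD80low, a fold of 2.10 (interval 1.79 to 2.47) and a ratio of 0.90. These levels rest on about 474 fragments in CD80high and 230 fragments in CD80low. Its partner Hspb8 was hardly detected, at 0.0252 FPKM in CD80high (about 1 fragment) and listed at 0 in CD80low. Dnaja4, a cytosolic J protein that works with Hsp70, was second, with 7.29 FPKM in CD80high against 3.72 FPKM in CD80low, a fold of 1.96 (1.66 to 2.32) and a ratio of 0.81. After the adjustment for transcript length, which subtracts the median ratio of the measured genes of nearest length, the ratio was 0.91 for Bag3 and 0.85 for Dnaja4. Bag3 overlaps 2610306O10Rik, an unverified transcript on the same strand, so the split of fragments between them is uncertain. The authors' deposited table, made from the same 2 libraries, gives p-values for 70 members. With 1 library per group these cannot measure variation between animals. The share of all genes at or under 0.05 was not counted, so no such count is given for the members. None of these 70 members passed 0.05 after the authors' adjustment.

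Hsf1 binds inverted repeats of a short unit, and the promoters of the members were searched for it. Promoter windows of 300 bases, from 250 before to 50 after the transcription start, came from RefSeq (GRCm38.p6) and matched 70 of the 86 members. The 16 members with no window were Bag4, Cct4, Dnajc2, Dnajc5, Dnajc5b, Dnajc11, Dnajc12, Dnajc18, Dnajc22, Dnajc30, Hsp90aa1, Hsp90ab1, Hspa8, Hspa9, Hspa13 and Hspb2. The motif searched was a pair of inverted heat shock units, GAANNTTC or TTCNNGAA, each of which reads as itself on the other strand. Such a pair stood in 15.1% of all 32851 windows, or in a window of 17.0% of all 27025 genes, and in 20 of the 70 members (28.6%). Among 14 members known from mammalian cells as Hsf1-inducible, 9 of the 11 with a window held a pair (81.8%), against 11 of the 59 other members (18.6%). Since these genes are known for their heat shock response, this share describes the list and is no finding about the populations. The windows of the members whose values follow are printed 5′ to 3′ on the strand of the gene, with motif matches in capitals. The Bag3 window (chr7:128523333-128523632, plus strand) is shown as that of the member with the largest ratio, and it has its only match at the very end, in the transcribed bases.
Bag3: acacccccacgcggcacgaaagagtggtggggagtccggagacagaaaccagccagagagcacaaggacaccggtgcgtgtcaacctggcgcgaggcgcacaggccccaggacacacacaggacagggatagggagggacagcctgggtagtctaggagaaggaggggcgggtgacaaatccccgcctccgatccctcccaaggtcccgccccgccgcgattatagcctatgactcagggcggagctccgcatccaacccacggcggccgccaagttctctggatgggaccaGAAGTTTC

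Dnaja4 is not among the Hsf1-inducible members listed here, yet its window (chr9:54699309-54699608, plus strand) held 2 pairs, starting 90 and 52 bases before the start site. Another window of the gene held no pair.
Dnaja4: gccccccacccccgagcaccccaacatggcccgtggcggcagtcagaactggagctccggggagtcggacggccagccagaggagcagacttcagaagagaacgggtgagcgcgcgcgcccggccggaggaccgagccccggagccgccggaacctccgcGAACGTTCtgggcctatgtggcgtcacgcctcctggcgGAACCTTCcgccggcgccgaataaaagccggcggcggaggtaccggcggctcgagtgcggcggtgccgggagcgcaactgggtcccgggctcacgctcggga

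Hsph1, the main Hsp110 exchange factor, has a window (chr5:149636266-149636565, minus strand) with 3 pairs. The last 2 overlap and form 3 units in a row, TTCNNGAANNTTC. They begin at bases 16 and 21 after the start site, in the transcribed bases. This fuller element (GAANNTTCNNGAA on the other strand, made of overlapping pairs) stood in 0.603% of all windows, or in a window of 0.662% of all genes. It stood in 4 of the 70 members (5.71%): Hsph1, Hspd1, Hspe1 and Dnajb6.
Hsph1: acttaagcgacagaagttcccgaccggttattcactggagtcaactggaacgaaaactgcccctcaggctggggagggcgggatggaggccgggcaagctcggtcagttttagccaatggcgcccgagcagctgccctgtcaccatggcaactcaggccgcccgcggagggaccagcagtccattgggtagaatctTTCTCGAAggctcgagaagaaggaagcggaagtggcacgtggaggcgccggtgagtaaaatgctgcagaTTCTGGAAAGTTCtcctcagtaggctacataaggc

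Hspa1b (chr17:34959189-34959488, minus strand) held 1 pair, which starts 104 bases before the start site. Its neighbour Hspa1a held 1 pair at the same distance.
Hspa1b: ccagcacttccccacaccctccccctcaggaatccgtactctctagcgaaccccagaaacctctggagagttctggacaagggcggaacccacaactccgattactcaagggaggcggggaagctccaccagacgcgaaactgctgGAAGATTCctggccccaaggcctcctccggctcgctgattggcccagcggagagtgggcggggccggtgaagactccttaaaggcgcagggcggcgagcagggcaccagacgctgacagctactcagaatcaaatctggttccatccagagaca

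Hspe1 and Hspd1 lie head to head on chromosome 1 with windows that share 285 bases, so most of the sequence is common to both, and the Hspe1 window (chr1:55087898-55088197, plus strand) is shown. It held 3 overlapping pairs in an unbroken row of units. This stretch lies in a window of both genes, so it counts for each of them. Another window of Hspd1 held no pair.
Hspe1: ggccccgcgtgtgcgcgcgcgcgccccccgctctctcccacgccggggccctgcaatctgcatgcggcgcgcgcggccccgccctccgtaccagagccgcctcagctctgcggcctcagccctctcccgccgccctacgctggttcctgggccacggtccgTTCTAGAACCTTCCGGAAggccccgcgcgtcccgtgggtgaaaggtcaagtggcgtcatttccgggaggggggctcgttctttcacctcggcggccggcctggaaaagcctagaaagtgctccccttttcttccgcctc

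Hspa5, the Hsp70 of the endoplasmic reticulum, had no heat shock pair in its window (chr2:34771840-34772139, plus strand). It held instead the endoplasmic reticulum stress element, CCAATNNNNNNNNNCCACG (CGTGGNNNNNNNNNATTGG on the other strand). That element stood in 0.119% of all windows, or in a window of 0.137% of all genes, and in 3 of the 70 members (4.29%): Hspa5, Hsp90b1 and Dnajc3.
Hspa5: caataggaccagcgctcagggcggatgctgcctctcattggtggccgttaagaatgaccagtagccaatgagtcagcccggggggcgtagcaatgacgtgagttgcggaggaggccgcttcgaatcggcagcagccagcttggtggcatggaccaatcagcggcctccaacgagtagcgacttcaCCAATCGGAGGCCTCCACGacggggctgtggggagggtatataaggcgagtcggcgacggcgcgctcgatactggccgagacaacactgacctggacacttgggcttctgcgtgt

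Members with and without a pair overlapped widely in their ratios. The 16 measured members with a pair had a median ratio of 0.07 (range -0.45 to 0.90, 10 above 0), beside -0.03 (range -0.54 to 0.37, 17 above 0) for the 39 with a window and no pair. The 4 members with the fuller element had a median ratio of -0.04 (1 above 0 and 3 below). It was 0.03 (26 above 0 and 25 below) for the 51 with a window and no such element. Among the 4, Hsph1 was higher in CD80high and Hspe1 was lower. Members with the same letters thus differed in opposite directions, but the element lies after the start site in Hsph1 and before it in Hspe1. A match is a description of these letters, not evidence that Hsf1 was bound.

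The 14 Hsf1-inducible members, all measured, were mostly a little higher in CD80high. Of them 11 were above 0 and 3 below, where 46.4% of all measured genes were above 0. The 14 were Hspa1a, Hspa1b, Hspa8, Hspa4l, Hsph1, Hsp90aa1, Hsp90ab1, Hspd1, Hspe1, Hspb1, Dnaja1, Dnajb1, Dnajb4 and Bag3. Their median ratio was 0.10, beside -0.05 for the 53 other measured members. After rescaling it was 0.23 with 13 above 0, beside a median of 0.12 and 73.8% above 0 for all measured genes. After the adjustment for length it was 0.08 with 11 above 0, where 49.7% of all measured genes were above 0. At least 1.2-fold higher among the 14 were Bag3, Hsph1 and Dnajb1, where 8.31% of all measured genes were. Hspe1 was at least 1.2-fold lower, where 11.4% of all measured genes were. The sum of the 14 was 5641 FPKM in CD80high against 5479 FPKM in CD80low. It includes Hspa8 and Hsp90ab1, the forms called constitutive here, which are among the most abundant. They were close to equal, with Hspa8 at 1112 FPKM in CD80high against 1095 FPKM in CD80low. Hsp90ab1 had 1128 FPKM in CD80high against 1118 FPKM in CD80low. Hsf1 itself had 34.7 FPKM in CD80high against 34.7 FPKM in CD80low. Hsbp1, which binds Hsf1 and restrains it, had 34.5 FPKM in CD80high against 45.3 FPKM in CD80low (ratio -0.38, and -0.19 after the adjustment for length).

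**Figure D3:**
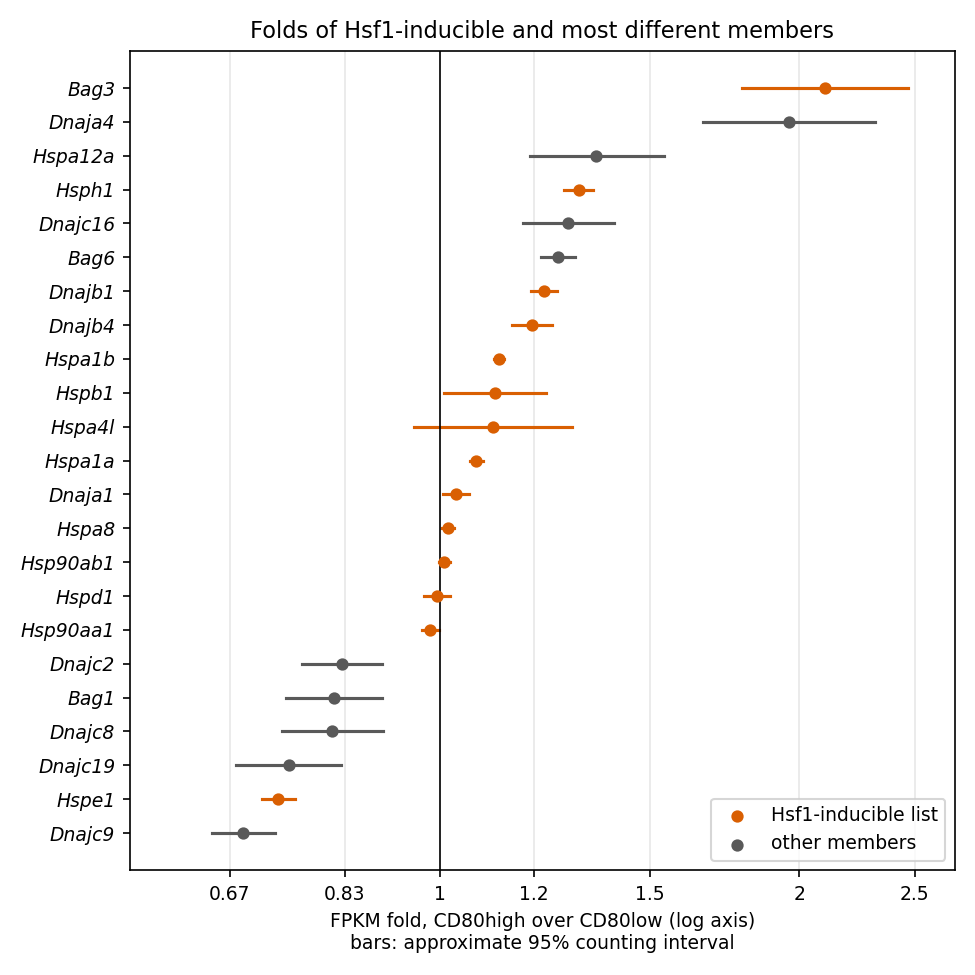
FPKM fold, CD80high over CD80low (log axis), of the 14 Hsf1-inducible members (orange) and of the members with the largest ratios in each direction (grey), with the approximate 95% counting interval as a bar. Bag3 (2.10) and Dnaja4 (1.96) lie farthest right and Dnajc9 (0.685) farthest left. Under rescaling to the mean FPKM total every point moves to the right by the same distance, and Hspd1 and Hsp90aa1 cross the line of equality.

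Genes that respond to handling of cells, and markers of other cell types, were also unequal between the libraries. Of 16 early response genes, which dissociation and sorting are known to raise, 15 were measured and 11 were above 0, with a median ratio of 0.11. The 16 summed to 5639 FPKM in CD80high against 5322 FPKM in CD80low. The most abundant, Jund, had 713 FPKM in CD80high against 812 FPKM in CD80low, and Klf2 had 692 FPKM in CD80high against 628 FPKM in CD80low. Atf3, a stress-induced transcription factor, had the largest difference among them, with 85.3 FPKM in CD80high against 31.4 FPKM in CD80low. The B cell list was present in both libraries, with 8 of 8 markers measured and a sum of 4882 FPKM in CD80high against 5413 FPKM in CD80low, and all 10 marginal zone B cell markers were measured, 9 of them above 0. Markers of T cells summed to 11.5 FPKM in CD80high against 2.57 FPKM in CD80low, with 12 of 12 higher in CD80high. For natural killer cells the sums were 37.9 FPKM in CD80high against 16.7 FPKM in CD80low (8 of 10 higher), for macrophages and monocytes 29.1 FPKM in CD80high against 16.7 FPKM in CD80low (12 of 12), and for plasma cells 302 FPKM in CD80high against 222 FPKM in CD80low (6 of 6). Most of the plasma cell sum was Irf4, at 198 FPKM in CD80high against 148 FPKM in CD80low. The fold intervals of Sdc1 (0.910 to 2.09) and of Tnfrsf17 (about 1 fragment in each library) included equality, and those of the other plasma cell markers lay above it. Neutrophil markers summed to 4.64 FPKM in CD80high against 0.613 FPKM in CD80low (9 of 10 higher, Ly6g at 0), dendritic cell markers to 5.68 FPKM in CD80high against 3.89 FPKM in CD80low (6 of 8, Xcr1 at 0) and endothelial and stromal markers to 73.0 FPKM in CD80high against 74.1 FPKM in CD80low (7 of 8). Nearly all of this last sum was Pecam1, the gene of its list that was not higher, at 69.6 FPKM in CD80high against 72.3 FPKM in CD80low. The part of these genes and cell types in the chaperone differences was not tested.

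Among Hsp70 genes, 9 of 11 were measured, 5 of them above 0, with a median ratio of 0.02 (0.18 after rescaling, 0.04 after the adjustment for length). Hspa1b had 1134 FPKM in CD80high against 1012 FPKM in CD80low, a fold of 1.12 (1.11 to 1.13), and Hspa1a had 751 FPKM in CD80high against 699 FPKM in CD80low, a fold of 1.07 (1.06 to 1.09). Their coding sequences were 99.4% identical, with 11 aligned positions that differ, and they lie 9951 bases apart on chromosome 17, so how fragments were divided between them is uncertain. Summed, the inducible pair had 1885 FPKM in CD80high against 1711 FPKM in CD80low. Hspa8, the constitutive form that folds new proteins and strips clathrin from vesicles, had 1112 FPKM in CD80high against 1095 FPKM in CD80low, a fold of 1.02 (1.004 to 1.03). The inducible pair thus stood at 1.70 times the level of Hspa8 in CD80high and 1.56 times in CD80low. This holds only if fragments common to Hspa1a and Hspa1b were divided between them and not counted for each. Whether handling of the cells raised the inducible forms was not tested. Hspa12a, a distant relative, was the Hsp70 gene with the largest ratio (0.37), at 6.44 FPKM in CD80high against 4.76 FPKM in CD80low, a fold of 1.35 (1.19 to 1.54). The remaining measured Hsp70 genes, Hspa2, Hspa5, Hspa9, Hspa13 and Hspa14, had ratios between -0.15 and 0.04. Hspa1l and Hspa12b were under the filter.

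Hsp110 proteins release nucleotide from Hsp70, and their 3 genes did not share a direction as deposited. Hsph1, known to be strongly heat-inducible, had 145 FPKM in CD80high against 111 FPKM in CD80low, a fold of 1.31 (1.27 to 1.35) and a ratio of 0.38, which was 0.37 after the adjustment for length. Hspa4, its constitutive relative, had 51.9 FPKM in CD80high against 58.1 FPKM in CD80low, a fold of 0.892 (0.861 to 0.924). The fold intervals of these 2 exchange factors do not overlap, and the ratio of Hspa4 was -0.16 as deposited, -0.01 after rescaling and -0.23 after the adjustment for length. Hspa4l, at 2.42 FPKM in CD80high against 2.19 FPKM in CD80low, had a fold of 1.11 (0.952 to 1.29), an interval that includes equality.

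Hsp90 genes were nearly equal, with ratios between -0.03 and 0.09. Hsp90ab1, the constitutive cytosolic form, had 1128 FPKM in CD80high against 1118 FPKM in CD80low, a fold of 1.01 (0.999 to 1.02). Hsp90aa1, the inducible form, had 386 FPKM in CD80high against 393 FPKM in CD80low, a fold of 0.982 (0.966 to 0.998), and its ratio of -0.03 was 0.13 after rescaling. The inducible form stood at 0.342 of the constitutive one in CD80high and at 0.352 in CD80low, the reverse of the order seen for Hsp70. Of 19 measured Hsp90 cochaperones, 4 were above 0 and 15 below, with a median ratio of -0.09. After rescaling it was 0.06 with 14 above 0, beside 0.12 and 73.8% above 0 for all measured genes. Ptges3, the p23 cochaperone that holds Hsp90 closed, had 109 FPKM in CD80high against 121 FPKM in CD80low, and Fkbp8, an immunophilin, had 104 FPKM in CD80high against 107 FPKM in CD80low. Both of these genes were above 0 after rescaling (0.01 for Ptges3 and 0.12 for Fkbp8).

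The 8 endoplasmic reticulum members were all measured and split evenly as deposited, 4 above 0 and 4 below, with ratios from -0.15 to 0.18. After rescaling 7 of 8 were above 0 (median 0.15), beside 73.8% of all measured genes (median 0.12). After the adjustment for length 5 of 8 were above 0 (median 0.03), beside 49.7% of all measured genes. Hspa5, the master Hsp70 of the compartment, had 485 FPKM in CD80high against 473 FPKM in CD80low, a fold of 1.03 (1.01 to 1.04). Hsp90b1, its Hsp90, had 258 FPKM in CD80high against 242 FPKM in CD80low, a fold of 1.06 (1.04 to 1.09). Dnajb9, a J protein that represses the stress sensor Ire1 through Hspa5, had the largest ratio of the 8 (0.18), with 142 FPKM in CD80high against 125 FPKM in CD80low, a fold of 1.14 (1.102 to 1.17). The 3 members with the endoplasmic reticulum stress element had ratios of 0.04 (Hspa5), 0.09 (Hsp90b1) and 0.12 (Dnajc3). Hyou1, the exchange factor of Hspa5, had 41.5 FPKM in CD80high against 37.6 FPKM in CD80low. The sum of the plasma cell markers, given above and mostly Irf4, was also higher in CD80high.

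Mitochondrial members were below 0 in 8 of 8, with a median ratio of -0.19, where 46.4% of all measured genes were above 0. After rescaling 4 of 8 were above 0 (median -0.05), beside 73.8% of all measured genes. After the adjustment for length 1 of 8 was above 0 (median -0.14), beside 49.7% of all measured genes. Hspe1, the lid of the mitochondrial chaperonin, had 343 FPKM in CD80high against 469 FPKM in CD80low, a fold of 0.733 (0.709 to 0.757). Hspd1, the ring it closes, had 199 FPKM in CD80high against 200.5 FPKM in CD80low, a fold of 0.995 (0.970 to 1.02). The lid and the ring of the chaperonin thus differed in their ratios: Hspe1 stood at 1.72 times Hspd1 in CD80high and at 2.34 times in CD80low. Hspe1 has a short transcript of 774 nucleotides, Hspd1 one of 2423 nucleotides, and the adjustment for length left -0.21 for Hspe1 and 0.02 for Hspd1. The genes share 112 bases on opposite strands, and GENCODE names 6 pseudogenes of Hspe1 and 5 of Hspd1, so the assignment of fragments is uncertain. Dnajc19, a J protein of the import motor, had 23.5 FPKM in CD80high against 31.4 FPKM in CD80low, a fold of 0.747 (0.676 to 0.827), and it overlaps Fxr1 on the opposite strand. Hspa9, the mitochondrial Hsp70, had 82.9 FPKM in CD80high against 86.6 FPKM in CD80low. In the list of 7 other mitochondrial chaperones and proteases, 1 was above 0 and 6 were below, with a median ratio of -0.12 that was 0.03 after rescaling. The most abundant of them, the protease Yme1l1, had 52.6 FPKM in CD80high against 57.1 FPKM in CD80low, and Trap1, the mitochondrial Hsp90, had 42.0 FPKM in CD80high against 45.7 FPKM in CD80low.

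Ratios ran with transcript length across the whole table, and the members took part in this. Across the 9955 measured genes, log2 length and ratio had a Pearson r of 0.40 and a Spearman rho of 0.45, and across the 67 members r was 0.26 and rho 0.35. These are correlations across genes of the same 2 libraries, so the points are not independent and no p is given. Among the 1990 genes with the shortest transcripts (up to 1490 nucleotides) the median ratio was -0.18, and 4 of the 13 members there were above 0. Among the 1991 genes with the longest (from 4277 nucleotides) the median was 0.10, and 6 of the 11 members there were above 0. Whether length itself set any difference was not tested.

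**Figure D4:**
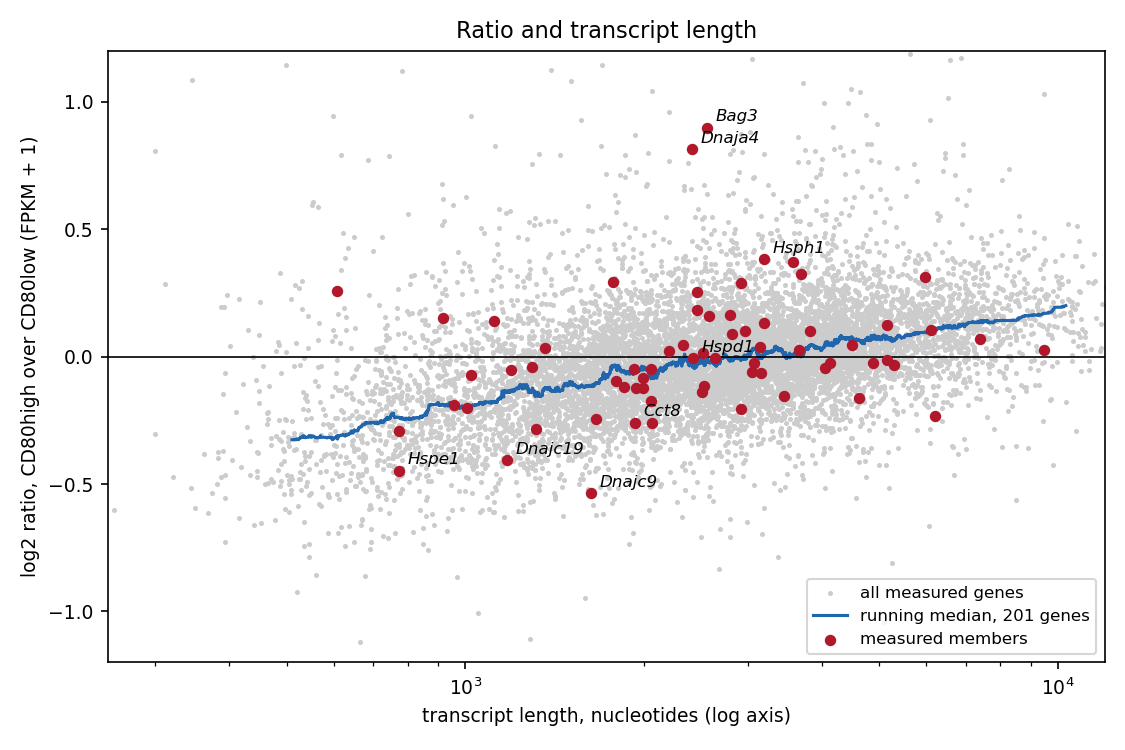
Ratio (log2 of CD80high over CD80low, FPKM + 1) against transcript length in nucleotides (log axis), for all 9955 measured genes (grey) and the 67 measured members (red), with the running median over genes of like length as a line. Genes beyond the axes are not drawn, and the line climbs from short to long transcripts. Hspe1 lies 0.21 below it, Dnajc9 0.42 below it, and Bag3 0.91 above it.

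J proteins form the largest family, and as deposited their classes had medians on both sides of 0. DNAJB had the largest share above 0, with 6 of 9 and a median ratio of 0.13 (0.27 after rescaling, 0.12 after the adjustment for length). Dnajb1, the principal cytosolic partner of inducible Hsp70, had 187 FPKM in CD80high against 153 FPKM in CD80low, a fold of 1.22 (1.19 to 1.25). Dnajb4, its close relative, had 92.2 FPKM in CD80high against 77.2 FPKM in CD80low, a fold of 1.19 (1.15 to 1.24). Dnajb2, which sorts ubiquitinated clients and was named after its value was seen, had 24.3 FPKM in CD80high against 19.7 FPKM in CD80low, a fold of 1.24 (1.13 to 1.35). These class B genes were higher in CD80high while Dnajb6, Dnajb11 and Dnajb12 had ratios between -0.07 and -0.0044, and 4 more were under the filter.

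In DNAJA, all 4 genes were measured, 2 above 0 and 2 below, with a median ratio of -0.05 that was 0.10 after rescaling. Apart from Dnaja4, they were Dnaja1, at 116 FPKM in CD80high against 112 FPKM in CD80low, Dnaja2, at 57.8 FPKM in CD80high against 66.8 FPKM in CD80low, and the mitochondrial Dnaja3, at 20.7 FPKM in CD80high against 23.0 FPKM in CD80low. The low-abundance Dnaja4 was thus the member that differed most in its class, and its span overlaps Wdr61 on the opposite strand. Wdr61 had 24.8 FPKM in CD80high against 25.7 FPKM in CD80low.

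DNAJC, a class of specialised J proteins, had 22 of 28 members measured, 7 above 0 and 15 below, with a median ratio of -0.05. After rescaling it was 0.09 with 13 above 0, beside 0.12 and 73.8% above 0 for all measured genes. Dnajc9, which works as a histone chaperone with Hsp70, had the lowest ratio of all members (-0.54, and -0.42 after the adjustment for length), at 44.7 FPKM in CD80high against 65.3 FPKM in CD80low. Its fold was 0.685 (0.644 to 0.727), on about 1767 fragments in CD80high and 2630 fragments in CD80low. Dnajc8, which is associated with splicing factors, had 39.9 FPKM in CD80high against 49.0 FPKM in CD80low, a fold of 0.813 (0.737 to 0.896), and its ratio of -0.29 was -0.05 after the adjustment for length. Dnajc2, which sits with Hspa14 on the ribosome, had 24.1 FPKM in CD80high against 29.1 FPKM in CD80low, a fold of 0.828 (0.767 to 0.895). The most abundant of the class, Dnajc7, which links Hsp70 and Hsp90, had 105 FPKM in CD80high against 102 FPKM in CD80low, and Dnajc5, the cysteine string protein of secretory vesicles, had 48.6 FPKM in CD80high against 47.8 FPKM in CD80low. Dnajc16 alone of the class was at least 1.2-fold higher, with 7.99 FPKM in CD80high against 6.24 FPKM in CD80low, a fold of 1.28 (1.17 to 1.399). All Dnaj genes together stood at 0.424 of the summed level of Hspa1a, Hspa1b and Hspa8 in CD80high and at 0.445 in CD80low.

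In the Bag family, all 6 genes were measured, 3 above 0 and 3 below. The family's median ratio was 0.06, with 0.14 after the adjustment for length and -0.03 with genes of at least 5 FPKM only. After rescaling it was 0.17 with 5 of 6 above 0, beside 0.12 and 73.8% above 0 for all measured genes. Bag6, which holds tail-anchored and misplaced membrane proteins in the cytosol, was the most abundant, with 88.3 FPKM in CD80high against 70.3 FPKM in CD80low, a fold of 1.26 (1.22 to 1.30). Bag1, an exchange factor that links Hsp70 to the proteasome, had 25.97 FPKM in CD80high against 31.8 FPKM in CD80low, a fold of 0.816 (0.744 to 0.895), and its ratio of -0.28 was -0.13 after rescaling and -0.14 after the adjustment for length, under 1.2-fold in both cases. As deposited, the interval of Bag1 lies below equality and those of Bag3 and Bag6 lie above it. Bag5 had 11.3 FPKM in CD80high against 12.1 FPKM in CD80low, and Bag2 and Bag4 had ratios of 0.14 and -0.03. Among 13 other Hsp70 cochaperones, all measured, 6 were above 0 and 7 below, with a median ratio of -0.08 that was 0.07 after rescaling and 0.01 after the adjustment for length. St13, which steadies Hsp70 bound to its client, had 36.9 FPKM in both CD80high and CD80low.

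Small heat shock proteins were scarce. Of 8 genes, 3 were measured, all of them above 0 (median ratio 0.15, and 0.34 after the adjustment for length). Hspb1, the only abundant one, had 38.5 FPKM in CD80high against 34.6 FPKM in CD80low, a fold of 1.11 (1.01 to 1.23). Hspb11, an intraflagellar transport protein in spite of its symbol, had 3.94 FPKM in CD80high against 3.12 FPKM in CD80low, and Hspb6 had 1.101 FPKM in CD80high against 1.05 FPKM in CD80low. The fold intervals of Hspb11 (0.841 to 1.89) and Hspb6 (0.640 to 1.72) include equality.

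Of the 8 Cct genes, 6 were measured, and all 6 were below 0 as deposited (median ratio -0.12), where 46.4% of all measured genes were above 0. After rescaling 5 of 6 were above 0 (median 0.03), beside 73.8% of all measured genes (median 0.12). After the adjustment for length 2 of 6 were above 0 (median -0.07), beside 49.7% of all measured genes. These genes encode subunits of the cytosolic ring that folds actin and tubulin. Cct2 had 166 FPKM in CD80high against 170.4 FPKM in CD80low, Cct5 had 140.0 FPKM in CD80high against 152 FPKM in CD80low, and Cct4 had 114 FPKM in CD80high against 118 FPKM in CD80low. The levels of the subunits spanned a factor of 2.06 in CD80high and 1.94 in CD80low between the highest, Cct2, and Cct3. Cct8 had the lowest ratio (-0.26) and was the subunit still below 0 after rescaling (-0.11); it had 89.2 FPKM in CD80high against 107 FPKM in CD80low, and it overlaps Usp16 on the opposite strand. Tcp1, the subunit with an older name that the symbol rule does not take, had 146.1 FPKM in CD80high against 153 FPKM in CD80low. It belongs to a list of 10 chaperonin and prefoldin genes, where all 10 were below 0 with a median ratio of -0.26, but after rescaling 5 of 10 were above 0 (median -0.11) and after the adjustment for length 2 of 10 (median -0.10). Prefoldin hands new actin and tubulin to the ring. Its subunit Pfdn5 had 197 FPKM in CD80high against 265 FPKM in CD80low, and Pfdn1 had 14.5 FPKM in CD80high against 22.5 FPKM in CD80low, a ratio of -0.60.

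**Figure D5:**
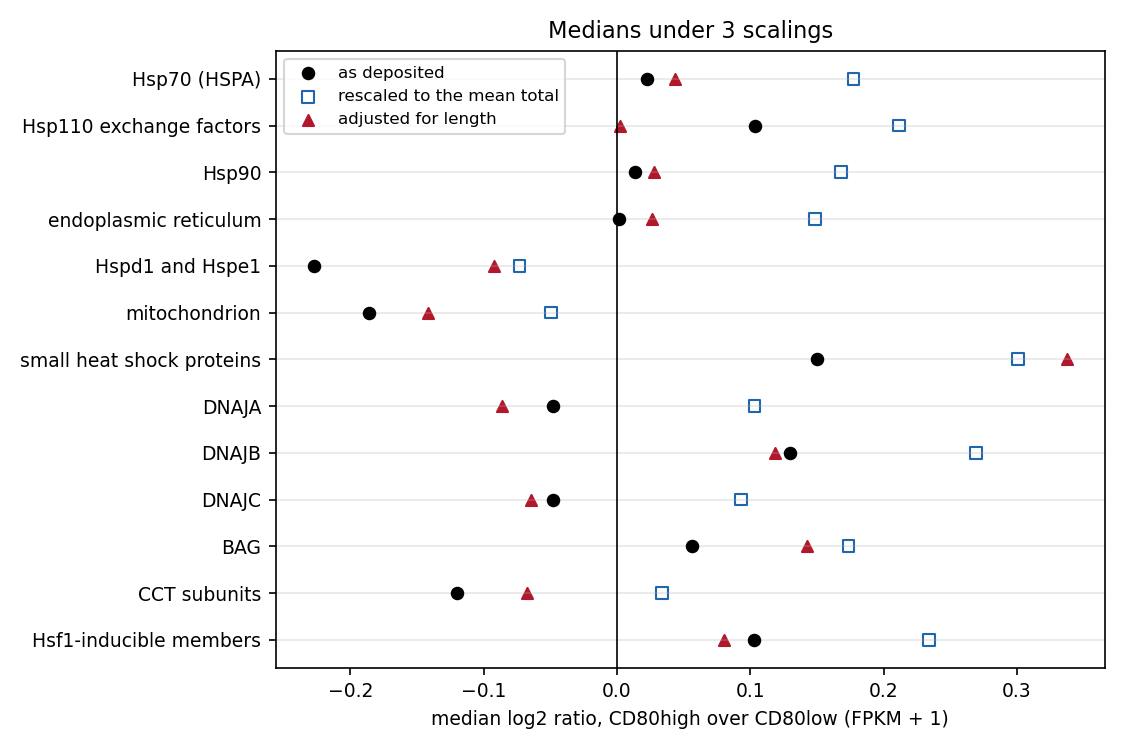
Median ratio (log2 of CD80high over CD80low, FPKM + 1) of each group of members as deposited (circles), after rescaling to the mean FPKM total (squares) and after the adjustment for transcript length (triangles). Hsp70, Hsp110, Hsp90, the endoplasmic reticulum, small heat shock proteins, DNAJB, BAG and the Hsf1-inducible members lie above 0 under all 3, Hspd1 with Hspe1 and the mitochondrial members below 0 under all 3, and DNAJA, DNAJC and CCT change sign with rescaling. Rescaling raises every ratio, so a median above 0 as deposited stays above 0 by construction. After it, the median of all measured genes was 0.12. Hsp110 was at 0.0024 after the adjustment for length.

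The 19 members under the filter were read little or not at all, with a highest mean of 0.959 FPKM (Dnajc28). Of these, 5 were listed at 0 in both libraries (Dnajb8, Dnajc22, Dnajc5b, Dnajc5g and Hspb3), 6 at 0 in CD80low only (Cct8l1, Dnajb7, Hspb2, Hspb7, Hspb8 and Hspb9) and 8 were above 0 in both. Of the 6 listed at 0 in CD80low, Dnajb7 had the most in CD80high, with 0.180 FPKM or about 6 fragments, and the other 5 had 1 or 2 fragments there. The fold intervals of the 8 genes above 0 in both libraries all included equality, so differences of these 8 were not detectable at this depth.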

How the data were processed

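Messenger RNA of CD80high and CD80low marginal zone B cells was sequenced with 1 library each. Directional libraries were made with an MGI kit, per the labels' protocols, and the sources used here do not say whether the counting was strand-specific. The submitters' processing notes name FastQC 0.11.5, STAR 2.6, Cuffnorm, Cuffdiff, Cufflinks 2.2.1 and the build mm10. The values deposited by the authors were taken as FPKM from those tools, since the sheet names no unit. The p-values and their adjustment are likewise as deposited by the authors. FPKM divides fragments among transcripts by a model, so near-identical and overlapping genes are uncertain. A few abundant genes can also shift all others.

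The table's 21853 rows held 21829 symbols. Rows of the 24 repeated symbols were added up, and no member was among them. The second sheet gave the same values for all 86 members and served only for that check. The members and lists were chosen with earlier results of these data known. The result of 1 further marker list is not reported here.

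Genes are named with values by this rule: in each role the 3 of highest mean FPKM, every member at 1.5-fold or more, the 6 with the largest ratio in each direction at a mean of at least 5 FPKM, and all Hsf1-inducible members. In the partner lists the 2 of highest mean and any at 1.5-fold or more are named. Genes named outside it (Hspb8, Hspa2, Hspa5, Hspa9, Hspa13, Hspa14, Dnajb2, Dnajb6, Dnajb11, Dnajb12, Dnajc3, Dnajc28, Bag2, Bag4, Cct3, Cct8, Wdr61, Irf4, Sdc1, Tnfrsf17, Pecam1, Ccl5, Prf1, Klrd1, Lat, Lyz2, Spic, Marco and those listed at 0) were chosen after their values were seen.

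Depth is not stated, so fragments were estimated from the steps on which low FPKM values fall in genes with transcripts longer than 2000 nucleotides. This gave about 2.42e+07 fragments for CD80high (577 genes) and 2.47e+07 for CD80low (521 genes). Of 637 low genes, 68.8% had a ratio no farther than 0.03 (log2) from that of 2 whole numbers of at most 6, once a shift of 0.05 (log2) was taken off. The shift was the one that made this share largest. Transcript lengths and positions are from GENCODE M21 (GRCm38, the assembly of mm10), as the median over protein-coding transcripts, and all 86 members matched. The calculations were tested on simulated data and were run in Python 3.11.15 with Biopython 1.88, matplotlib 3.10.9, scipy 1.17.1, pandas 2.3.3 and numpy 2.4.6.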

Additional observations from a re-analysis of the deposited data

How the results depend on the processing

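No paired analysis was possible because a single library stands for either group, and none could be left out. Alternatives were a pseudocount of 0.1 or 5, no filter on low values or a mean of at least 5 FPKM, centring, rescaling to the mean of both totals, adjusting for transcript length, keeping the highest row of a repeated symbol and, added after seeing the data, summing Hspa1a and Hspa1b. With the pseudocount of 1, no member was 2-fold higher in CD80high, against 1 with a pseudocount of 0.1 and 1 after rescaling, in each case Bag3. At 1.2-fold higher there were 8 members, against 5 with a pseudocount of 5 and 16 after rescaling. At 1.2-fold lower there were 5, against 8 with a pseudocount of 0.1, 2 after rescaling and 3 after the adjustment for length. No share of all measured genes is given under these other settings, so the changed counts describe the settings and not the members. Rescaling gave medians of 0.12 for all members, 0.18 for Hsp70, 0.21 for Hsp110, 0.17 for Hsp90, -0.073 for Hspd1 and Hspe1, 0.10 for DNAJA, 0.27 for DNAJB, 0.093 for DNAJC, 0.17 for BAG, 0.034 for CCT, 0.15 for endoplasmic reticulum, -0.049 for mitochondrial and 0.23 for Hsf1-inducible members. In the partner lists it gave 0.15 for heat shock factors, 0.056 for Hsp90 cochaperones, 0.070 for other Hsp70 cochaperones, -0.11 for chaperonin and prefoldin, 0.035 for other mitochondrial chaperones and 0.26 for early genes. The adjustment for length gave 0.0024 for Hsp110, -0.092 for Hspd1 and Hspe1 and -0.10 for chaperonin and prefoldin. A pseudocount of 5 gave 0.047 for Hsp110, and a mean of at least 5 FPKM gave -0.19 for heat shock factors. Rescaling and the pseudocount act by construction, and for the length adjustment the cause was not tested. Of 160 recomputed list medians, 137 moved by less than the counting error of their genes, as did 329 single-gene values, against 70 that moved by more. The filters leave a single-gene value as it is, and no member was on a repeated row. Part of the 329 was therefore fixed in advance, and this tally does not measure how stable the values are. What counting error leaves out, such as variation between animals and library preparation, was not measured.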
